A study of Homo sapiens with 6 samples.

Results

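DDAH1, SERINC3, TACC1, SELENOF and TBC1D5 are 5 protein-coding genes whose mRNA was much lower in OE-19 cells after knockdown of IGF2BP3. They were picked by gene symbol from the gene count table for falls that were large against the spread between libraries, beside ERBB3 and RHOA, so their differences between the groups are described below without a test. They are 5 of the 19778 genes that had enough reads to be tested, out of 60480 gene identifiers in the table.

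OE-19 is an established human cell line of adenocarcinoma of the esophagogastric junction (AEG). PolyA RNA was sequenced from 3 libraries labelled shControl, described as a control knockdown (control) and named Puro in the count table, which the labels do not explain, and 3 labelled shIGF2BP3 (IGF2BP3 KD), all grown in RPMI1640 with fetal bovine serum. The labels do not say whether the libraries of a group came from separate cultures, or whether the 3 IGF2BP3 KD libraries carry the same short hairpin RNA. Errors and p-values therefore rest on the spread between these libraries only.

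IGF2BP3 is an oncofetal RNA-binding protein that binds many mRNAs, with a part in their stability, and is known as a reader of N6-methyladenosine (m6A). The 5 genes belong to separate pathways. DDAH1 breaks down asymmetric dimethylarginine, an inhibitor of nitric oxide synthases that is released from arginine-methylated proteins. SERINC3 is a membrane protein of the serine incorporator family, known for moving lipids between membrane leaflets and for restricting retroviruses. TACC1 is a coiled-coil protein of centrosomes and microtubules. SELENOF is a selenoprotein of the endoplasmic reticulum that binds the glycoprotein folding sensor UGGT1. TBC1D5 is a GTPase-activating protein for RAB7 that binds the retromer, the coat that returns cargo from endosomes.

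The 5 mRNAs share the 7-base word GATTACT in their 3′ untranslated region (3′ UTR). The word had been picked out on the same comparison in earlier work on these data, so its presence is a description. The sites outside TACC1 are shown because they are the sequence the genes have in common, and those of ERBB3 and RHOA because these genes were lowered beside them. Each line gives 30 bases of the mRNA strand from the hg38 genome, 5′ to 3′ and in DNA letters, with the word in capitals, 12 bases before it and 11 after it.
DDAH1: ctactctgaacaGATTACTaaggccatctc
SERINC3: ccaaagttctagGATTACTggcatgagcca
SELENOF: aacaagacagatGATTACTatgcctcatgt
TBC1D5, site nearer the stop codon: gccagaaaacaaGATTACTgtaagccagtt
TBC1D5, site farther from the stop codon: ttagttacactgGATTACTcttccaaagct
ERBB3, site nearer the stop codon: ggagatatgaagGATTACTctccatatccc
ERBB3, site farther from the stop codon: ggagtagatattGATTACTatcataattca
RHOA: atcttagtgtatGATTACTggcctttttca

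In the canonical transcripts of GENCODE release 44, the DDAH1 word lies on the minus strand at chr1:85318816-85318822, at base 2630 of a 3′ UTR of 2967 bases. The SERINC3 word lies on the minus strand at chr20:44498316-44498322, at base 1974 of 2855. The SELENOF word lies on the minus strand at chr1:86863122-86863128, at base 346 of 1029. TBC1D5 holds 2, on the minus strand at chr3:17160157-17160163 and chr3:17158051-17158057, at bases 800 and 2906 of 3795. All of these positions are exonic. Annotated transcripts differ in whether they carry the site: 2 of 2 transcripts with a 3′ UTR did for DDAH1, 1 of 3 for SERINC3, 2 of 3 for SELENOF and 2 of 5 for TBC1D5.

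The neighbouring bases were not alike. Outside the word, 0 positions of the 30-base windows held the same base in the 5 sites of DDAH1, SERINC3, SELENOF and TBC1D5. The 11 bases that follow the SERINC3 word occur somewhere in the 3′ UTR of 645 of 13795 tested coding genes (4.68%), against 0.0362% to 0.174% for the other 7 sites above. No mature miRNA of the 2545 in the RefSeq set (0 of 2545) has the complement of the word as its seed, bases 2 to 8. The short hairpin RNA of the IGF2BP3 KD libraries was not compared with the word, and a part of small RNAs was not tested.

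The libraries held 53424071 to 69989087 counts each, and IGF2BP3 itself fell from 108 ± 2.92 to 13.3 ± 0.996 CPM (read counts relative to library size, scaled by the TMM factors of edgeR, mean ± SD, n = 3 each). Libraries of a group differed by more than counting noise, with chi-square per degree of freedom of 9.86 to 17.6, and none was a copy of another. Of the defining markers of epithelium, 5 of 5 (EPCAM, KRT8, KRT18, KRT19 and CDH1) were above 1 CPM, with a sum of 5677 to 5745 CPM in control and 5593 to 5709 in IGF2BP3 KD libraries. Of the leukocyte, endothelial and fibroblast markers, 1 of 5 was above 1 CPM: COL1A1, at 20.5 to 23.6 CPM in control and 29.2 to 33.5 in IGF2BP3 KD libraries. That list summed to 20.9 to 24.2 and 29.7 to 33.7 CPM, and PTPRC, PECAM1, COL3A1 and PDGFRB were at or near 0. The part of this COL1A1 difference in the results below was not tested.

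Over all genes tested, 2088 fell (10.6%) and 1953 rose (9.87%) in IGF2BP3 KD cells at an adjusted p of 0.05, by the quasi-likelihood test of edgeR with Benjamini-Hochberg adjustment. In 3519 genes (17.8%) all 3 IGF2BP3 KD values lay below all 3 control values. All 5 genes belong to the first and the last of these sets, which their choice decided, and nothing is read from it. In these bulk libraries, fewer cells with a transcript and less of it per cell cannot be told apart.

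DDAH1 (ENSG00000153904, chr1:85318481-85578363, minus strand) stood at 232, 220 and 227 CPM in control replicates 1, 2 and 3 and at 96.3, 99.0 and 99.9 CPM in IGF2BP3 KD replicates 1, 2 and 3. The groups lay far apart, with 120 CPM between the lowest control and the highest IGF2BP3 KD library. The means were 226 ± 6.28 and 98.4 ± 1.84 CPM, a log2 fold change of −1.20 (SE 0.03), and the IGF2BP3 KD mean was 43.5% of control.

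SERINC3 (ENSG00000132824, chr20:44496221-44522085, minus strand) was almost the same in its level and its change. Its control values were 218, 204 and 213 CPM, and its IGF2BP3 KD values were 90.5, 91.0 and 91.0 CPM. The 3 IGF2BP3 KD libraries were nearly identical, and the gap to the lowest control library was 113 CPM. From 211 ± 7.27 to 90.9 ± 0.274 CPM, the log2 fold change was −1.22 (SE 0.03), leaving 43.0% of control. The ratio of DDAH1 to SERINC3 stayed within 1.06 to 1.10 in all 6 libraries, with means of 1.07 in control and 1.08 in IGF2BP3 KD cells.

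SELENOF (ENSG00000183291, chr1:86862445-86914424, minus strand) was at 146, 133 and 136 CPM in control and at 63.1, 66.0 and 63.4 CPM in IGF2BP3 KD libraries. Control replicate 1 was the highest library and the groups were separated by 66.7 CPM. The means of 138 ± 7.07 and 64.2 ± 1.57 CPM gave a log2 fold change of −1.11 (SE 0.04), or 46.4% of control. DDAH1 and SELENOF are on the same arm of chromosome 1, 1.284 Mb apart.

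TBC1D5 (ENSG00000131374, chr3:17157162-18444817, minus strand) was the least abundant and the most lowered of the 5. It stood at 62.8, 60.4 and 63.1 CPM in control and at 22.6, 23.7 and 20.3 CPM in IGF2BP3 KD libraries. The groups did not overlap, with 36.7 CPM between them. From 62.1 ± 1.49 to 22.2 ± 1.74 CPM, the log2 fold change was −1.48 (SE 0.06), and 35.8% of control remained. Its gene spans 1287656 bases, more than 99.9% of the coding genes compared.

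**Figure D1:**
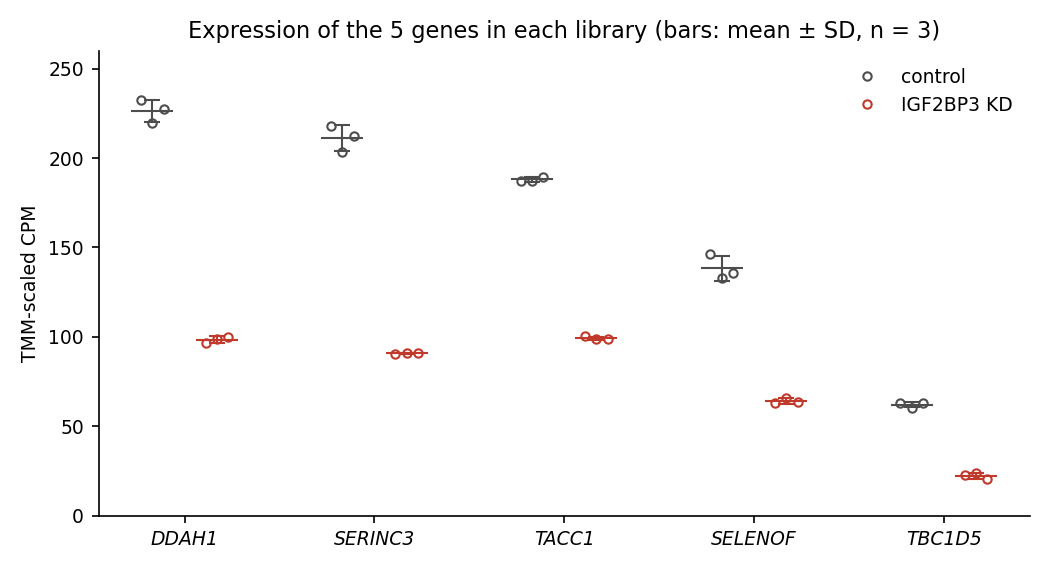
TMM-scaled CPM (y axis) of each gene (x axis) in every library, with open circles for libraries and bars for the mean ± SD of 3 control (grey) and 3 IGF2BP3 KD (red) libraries. The groups do not overlap for any of the 5 genes, and DDAH1 (226 and 98.4 CPM) and SERINC3 (211 and 90.9 CPM) lie almost level in both groups.

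TACC1 (ENSG00000147526, chr8:38728186-38853028, plus strand) had the smallest change of the 5. Its control values were 187, 187 and 189 CPM, and its IGF2BP3 KD values were 100.3, 98.7 and 98.9 CPM. The lowest control library was 87.0 CPM above the highest IGF2BP3 KD library. The means of 188 ± 1.22 and 99.3 ± 0.835 CPM gave a log2 fold change of −0.92 (SE 0.03), or 52.8% of control. Its word lies at chr8:38852969-38852975, base 4946 of a 3′ UTR of 5005 bases and 53 bases before the transcript end, in 2 of 11 annotated transcripts.

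Divided by the merged exon length, the order of the levels in control cells was SELENOF (62.8 CPM per kb), DDAH1 (49.4), SERINC3 (45.5), TACC1 (14.96) and TBC1D5 (5.51). In IGF2BP3 KD cells the levels were 29.2, 21.5, 19.5, 7.90 and 1.97 CPM per kb in the same order. No neighbours in this order overlapped between libraries of a group. By this measure SELENOF was above 96.8% of the coding genes compared, whereas TBC1D5 was close to their middle, above 54.1%.

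The order of the changes was another one. Setting each IGF2BP3 KD library against each control library, TBC1D5 kept 32.1% to 39.3% of its control level and TACC1 52.1% to 53.5%, ranges that overlapped no other. DDAH1 (41.5% to 45.4%), SERINC3 (41.5% to 44.7%) and SELENOF (43.2% to 49.7%) overlapped one another. Within libraries the ratio of TACC1 to TBC1D5 went from 3.03 in control to 4.49 in IGF2BP3 KD cells, 48.3% higher, while the ratio of SERINC3 to TACC1 went from 1.12 to 0.915. The 5 mRNAs did not keep one common proportion.

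By size alone the falls were not the extremes of the table, with TBC1D5 in place 124, SERINC3 220, DDAH1 229, SELENOF 282 and TACC1 455 of 19778 genes. That order takes in genes of all levels, with log2 fold changes down to −10.1. Ordered by the p-value of the fit among lower genes, DDAH1 was in place 5, SERINC3 6, TACC1 7, SELENOF 11 and TBC1D5 13, behind ERBB3 in place 1 and RHOA in place 3. The SD of log2 CPM within groups was 0.0108 for TACC1, lower than in all but 0.274% of 9857 genes with at least 10 CPM, 0.0341 for DDAH1 and 0.0353 for SERINC3. SELENOF (0.0570) was nearer to the median of 0.0655, and TBC1D5 (0.0832) was above it. TBC1D5 thus had the largest fall of the 5 and the widest spread. The 5 were chosen for falls that were large against the spread. Their places by p and their spreads are therefore a description, from which nothing is read.

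The rule has no numerical threshold. Just after TBC1D5 in the order by p came RPL7L1, a ribosomal protein paralogue (684 to 475 CPM, log2 fold change −0.53), and STK39, a kinase upstream of cation chloride cotransporters (74.7 to 33.5 CPM, −1.16). Between the 5 genes stood HEATR1 (−1.02), EIF3A (−0.85), NFYA (−0.79) and NET1 (−0.69), and ahead of them the actin crosslinker ACTN1 (−1.11). The median log2 fold change was −1.20 over the 5 genes, which their choice decided, and 0.01 over all genes tested. For comparison, ERBB3, a receptor of the EGFR family, went from 393 ± 3.69 to 143 ± 2.22 CPM (−1.46, SE 0.03) and RHOA, a small GTPase of the actin cytoskeleton, from 418 ± 6.67 to 172 ± 4.54 CPM (−1.28, SE 0.03).

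Across the 13795 tested coding genes with an annotated 3′ UTR, GATTACT was present in 1269 (9.20%), and in 5 of the 5 genes here. Genes with the word had a median log2 fold change of −0.12 against 0.01 without it, and 33.1% fell against 12.5%. The share that rose was 7.33% with the word and 13.8% without it. The longer form GATTACTA was in 1.80% of genes and in 3 of the 5 (DDAH1, TACC1 and SELENOF), and ATTACTA, which overlaps both, was in 11.8% and in 4. Only the mRNA strand was searched.

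ACACATC, another word taken from the earlier work, was in 11.5% of 3′ UTRs and in 0 of the 5 genes. Of the genes that hold it 26.2% rose, against 11.5% of the others. ACACATC and GATTACT were both chosen with earlier results of these data known, so their shares are a description from which nothing is read. TGGAC, which contains the GGAC core common at m6A sites, was in 68.1% of 3′ UTRs and in 5 of the 5 genes. In canonical 3′ UTRs it was in 61.1% of genes and in 4 of the 5, that of SELENOF lacking it. Such frequencies set the 5 genes apart little. The study reports the same sequence, as UGGAC, as the consensus of IGF2BP3 binding sites in OE-19 cells. Measured binding and m6A at the 5 genes were not examined here. Long 3′ UTRs hold any word more often. DDAH1, SERINC3, TACC1 and TBC1D5 have 3′ UTRs longer than 77.2% to 92.2% of coding genes, whereas that of SELENOF is longer than 44.5%. Of 7656 genes whose 3′ UTR is at least as long as that of SELENOF, 12.6% hold GATTACT.

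The number of sites went with the share of lower genes, in classes that were not matched for level or 3′ UTR length. Among canonical transcripts, 12.7% of 12720 genes with 0 sites, 34.0% of 957 with 1 site, 47.0% of 100 with 2 sites and 57.1% of 7 with 3 or more fell, with medians of 0.01, −0.13, −0.18 and −0.24 on the log2 scale. In their canonical 3′ UTRs TBC1D5 and ERBB3 hold 2 sites, and DDAH1, SERINC3, TACC1, SELENOF and RHOA hold 1, a description from which nothing is read, since the genes and the word were chosen on this comparison.

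**Figure D2:**
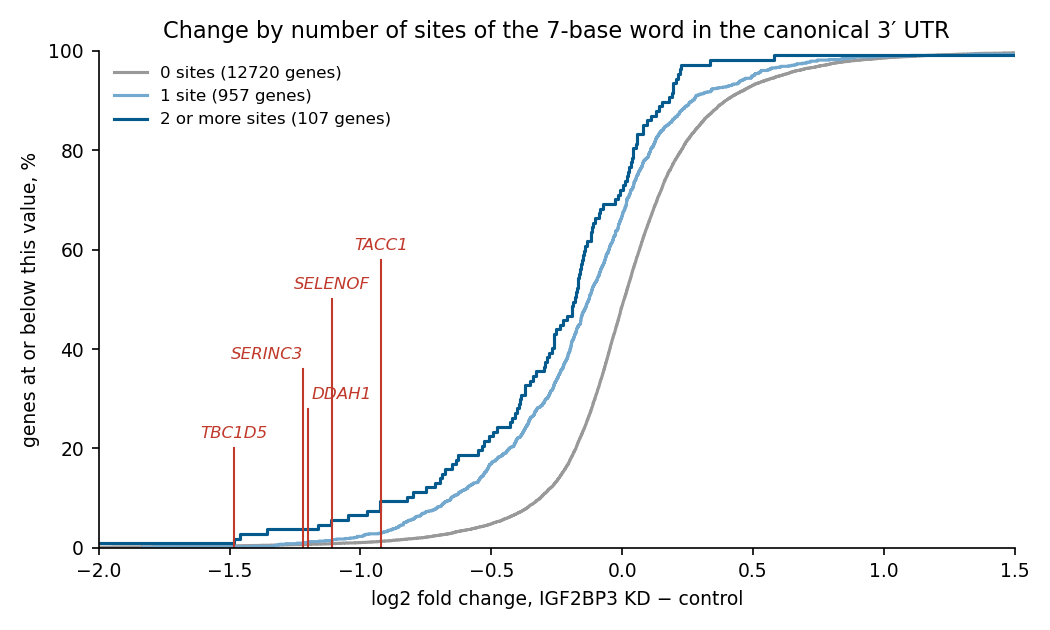
Cumulative share of coding genes (y axis, percent) at or below each log2 fold change (x axis, IGF2BP3 KD minus control) for genes with 0, 1 and 2 or more sites of the 7-base word in the canonical 3′ UTR, with red lines at the 5 genes. The curves shift to lower values with more sites. The 5 genes, from −0.92 to −1.48, lie in the low tail of the curves, which their choice decided.

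Most genes with the word did not change by as much. Of 397 genes with the word and a control level at or above that of TBC1D5, 216 fell (54.4%) and 34 rose (8.56%), with a median log2 fold change of −0.15. At the same level, 878 of 3307 genes without the word fell (26.5%) and 628 rose (18.99%), with a median of −0.03. Of the 397 genes, 10 were at or below the value of TACC1: the 5 genes, ERBB3, RHOA, STK39, HEATR1 and the decapping enzyme gene DCP2. Among the 3307 genes without the word, 4 were at or below that value. The 5 genes and the word were chosen on this comparison, and both cut-offs are values of the 5. Nothing is read from the 10 and the 4. At the other end, 166 of the 397 genes with the word had a value of −0.1 or above, and 2260 of the 3307 without it.

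**Figure D3:**
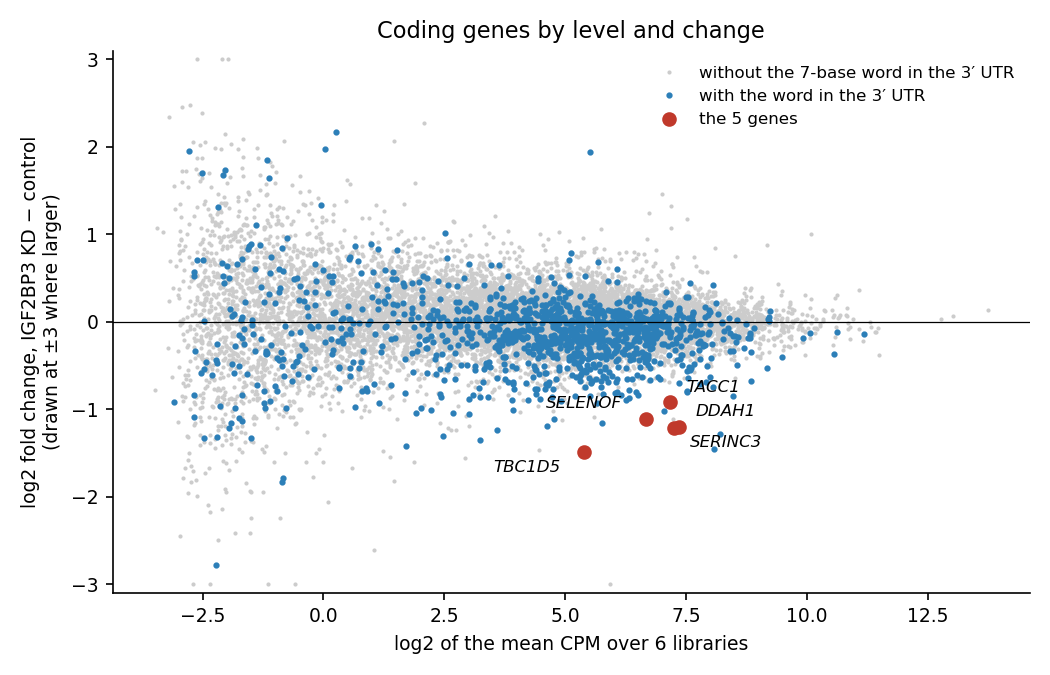
Log2 fold change (y axis, IGF2BP3 KD minus control, drawn at ±3 where larger) against the log2 of the mean CPM over 6 libraries (x axis) for coding genes without the word (light grey), with it (blue) and for the 5 genes (red). At their level the 5 genes, which were chosen for their falls, are among the lowest points, while most genes with the word lie nearer to 0.

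SERINC1, VPS35 and YWHAB hold the word with a small fall or none that passed the test, and were picked for display after their values were seen. SERINC1, a relative of SERINC3, fell slightly, from 111 CPM in control to 99.5 in IGF2BP3 KD cells (−0.15, adjusted p = 0.0206 in edgeR). VPS35, the retromer subunit, was at 155 and 164 CPM, and YWHAB, a 14-3-3 protein encoded near SERINC3, at 304 and 305 CPM. Their words lie in 3′ UTR exons at chr6:122444222-122444228 (minus strand), chr16:46657088-46657094 (minus strand) and chr20:44906678-44906684 (plus strand), shown in the same layout.
SERINC1: ctgaggtgggtaGATTACTtgagcccagga
VPS35: tcttgtattgctGATTACTccagtagggca
YWHAB: taacattgacagGATTACTgtgtgtttaat

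The 11 bases after the SERINC1 word are also common, in the 3′ UTR of 490 of 13795 genes (3.55%), close to the share for SERINC3, against 0.0362% for VPS35 and 0.196% for YWHAB.

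Features around the word varied among genes with a single site. By the share of A and T in the 60 flanking bases, the lowest, middle and highest classes of these 957 genes, of about equal size, fell in 27.1%, 33.9% and 42.2% of cases. By distance from the stop codon, the nearest, middle and farthest classes fell in 44.1%, 31.8% and 26.0%. Distance to the transcript end went with no such gradient (34.8%, 34.1% and 33.0%). These classes were not matched for level or 3′ UTR length, and that length bounds the distance from the stop codon. The part of either in the gradients was not tested.

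The 5 genes were spread over these features. The site of TACC1 had 78.3% A and T around it, those of TBC1D5 65.0% and 63.3%, SELENOF 61.7%, DDAH1 58.3% and SERINC3 36.7%. SELENOF, at base 346, is in the class nearest to the stop codon, which ends at 821 bases, while DDAH1 and TACC1 are beyond 2138 bases, in the farthest class. The base after the word is A in DDAH1, SELENOF and TACC1, and single-site genes fell in 36.2% of cases with A there, 34.0% with G, 33.8% with T and 31.5% with C.

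The pathway of DDAH1 was followed through 16 tested genes of arginine methylation and dimethylarginine turnover. Of these, 2 fell and 4 rose (median log2 fold change 0.10), beside 10.6% and 9.87% over all genes tested. This list and those below were not matched to all genes for level. DDAH2, the paralogue, was at 15.6, 16.97 and 14.1 CPM in control and 17.6, 18.8 and 19.1 CPM in IGF2BP3 KD libraries. Its groups did not overlap, in the direction opposite to DDAH1, but the difference did not pass the test (0.25, SE 0.08, adjusted p = 0.0579 in edgeR).

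PRMT1, the main enzyme making asymmetric dimethylarginine, fell from 141 to 101 CPM (−0.49, SE 0.05, adjusted p = 2.61e-05 in edgeR). SLC7A1, a cationic amino acid transporter with GATTACT in its 3′ UTR, fell from 381 to 302 CPM (−0.34). ASS1 and ASL, which remake arginine from citrulline, rose by 0.30 and 0.23, ASS1 from 381 to 467 CPM. PRMT6 (0.33) and the transporter SLC7A2 (0.47) also rose at under 12 CPM. The 4 higher genes were 2 without control replicate 3, IGF2BP3 KD replicate 1 or IGF2BP3 KD replicate 3.

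Of 12 tested genes of the SERINC family and of serine-derived lipids, 2 fell and 2 rose (median 0.08). Over all genes tested, 10.6% fell and 9.87% rose. SERINC1, described above, went from 111, 112 and 109 CPM in control to 97.1, 104.4 and 96.9 CPM. SERINC2 (0.11) and SERINC5 (−0.13) did not pass. None of the 3 tested relatives came near the change of SERINC3, which was chosen for its fall.

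The other values of this list concern lipid synthesis. SPTLC1, a subunit of the serine palmitoyltransferase that starts sphingolipid synthesis, was at 72.3, 70.1 and 67.6 CPM in control and 137.5, 135.0 and 132.6 CPM in IGF2BP3 KD libraries. With groups far apart, it rose from 70.01 ± 2.33 to 135 ± 2.44 CPM (0.95, SE 0.04, adjusted p = 6.37e-08 in edgeR). SPTLC3, another subunit, rose by 0.50 at a low level, and PTDSS1, a phosphatidylserine synthase, fell by 0.13. SPTLC2, with GATTACT in its 3′ UTR, did not pass (−0.07). The lower count was 0 without control replicate 2 or IGF2BP3 KD replicate 1 and 1 without IGF2BP3 KD replicate 2 or 3, and the higher count was 1 without control replicate 2 or 3 or IGF2BP3 KD replicate 2 or 3.

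Of 7 TACC family members and spindle partners, 3 fell and 1 rose (median −0.15), beside 10.6% and 9.87% over all genes. GATTACT is in the 3′ UTR of 0 of them. TACC3, the mitotic family member, fell from 112 to 95.9 CPM (−0.22, adjusted p = 0.00406 in edgeR), and TACC2 did not pass (0.06). The microtubule polymerase CKAP5 and the spindle assembly factor TPX2 fell by 0.19 and 0.26. CLTC, the clathrin heavy chain that binds TACC3 on the spindle, rose by 0.20, from 742 to 852 CPM.

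Among 28 tested selenoproteins and factors that insert selenocysteine or bind SELENOF, 3 fell and 6 rose (median 0.07). The shares over all genes were 10.6% lower and 9.87% higher. TXNRD1, the cytosolic thioredoxin reductase, fell from 599 to 449 CPM (−0.42, SE 0.03, adjusted p = 1.99e-06 in edgeR), UGGT1 fell by 0.12 and the glutathione peroxidase GPX2 by 0.07. SELENOP, the secreted selenium carrier, rose from 26.8 to 39.1 CPM (0.55), and SELENOW (0.36), TXNRD2 (0.26), SELENON (0.25), MSRB1 (0.24) and SELENOT (0.19) rose less. No other selenoprotein passing the test had a change of the size of that of SELENOF, which was chosen for its fall. SELENOS, the 1 gene of this list with GATTACT in its 3′ UTR, did not pass (0.10). The count of lower genes was 1 without control replicate 2 or IGF2BP3 KD replicate 1 or 3, GPX2 and UGGT1 being the calls lost.

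TBC1D5 has 38 tested relatives with a TBC domain, which switches off Rab GTPases. Of these, 9 fell and 8 rose (median 0.01), beside 10.6% and 9.87% over all genes. TBC1D1 fell from 19.3 to 11.3 CPM (−0.77, SE 0.10, adjusted p = 0.000344 in edgeR) and RABGAP1 from 141 to 90.7 CPM (−0.64, SE 0.04, adjusted p = 2.04e-06 in edgeR). TBC1D1, TBC1D4 (−0.20) and TBC1D16 (−0.25) hold GATTACT and fell, EVI5 (0.05) holds it and did not pass, and RABGAP1 does not hold it. TBC1D9, GRTP1, TBC1D31, TBC1D20 and TBC1D10B fell by 0.28 to 0.16, while SGSM1, SGSM3, TBC1D10A, TBC1D12, TBC1D8B, TBC1D2B, RABGAP1L and TBC1D14 rose by 0.51 to 0.11. The higher count was 5 without control replicate 3.

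The last list holds the retromer, which TBC1D5 binds, its partners and RAB7, the GTPase that TBC1D5 switches off. Of 18 tested genes 0 fell and 2 rose in edgeR (median 0.06), beside 10.6% and 9.87% over all genes, with 1 lower and 7 higher at an unadjusted p of 0.05, and 1 lower and 4 higher in DESeq2. SNX1, a membrane-bending sorting nexin, rose by 0.16 and the cargo-binding subunit VPS26B by 0.13. VPS35 (0.08), VPS26A (0.05), VPS29 (0.20) and RAB7A (259 to 274 CPM, 0.09) did not pass. The lower count was 2 without control replicate 3, and the higher count was 1 without control replicate 2 or 3.

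**Figure D4:**
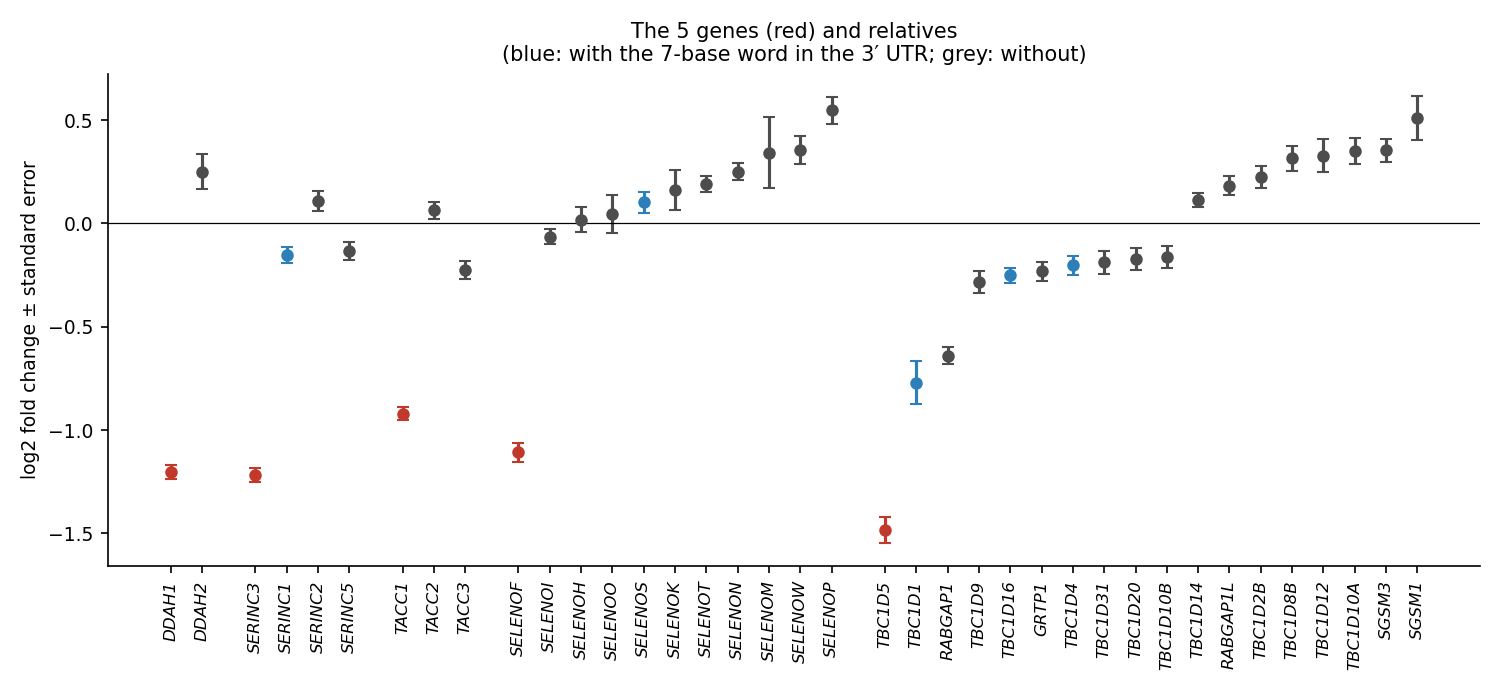
Log2 fold change ± standard error (y axis) of the 5 genes (red) and of their named relatives (x axis), in blue where the 3′ UTR holds the 7-base word and in grey where it does not: DDAH2, the SERINC, TACC and SELENO genes tested, and the TBC domain genes that passed the test. Each red point lies below all of the relatives beside it, which is not read as a result, since the 5 were chosen for their falls.

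Neighbouring genes on the chromosome are described beside the 5, which were chosen for their falls, so a contrast with them is not read as a result. Of 29 neighbouring tested coding genes, the 3 nearest on each side, 2 fell and 0 rose in edgeR (median 0.03). Over all genes tested, 10.6% fell and 9.87% rose. Among the 29 there were 4 lower and 3 higher at an unadjusted p of 0.05 in edgeR, and 2 higher in DESeq2. C1orf52, near DDAH1, fell from 10.0 to 7.53 CPM (−0.42, adjusted p = 0.0224 in edgeR) and SH3GLB1, near SELENOF and with GATTACT in its 3′ UTR, from 99.3 to 85.4 CPM (−0.22, adjusted p = 0.00172 in edgeR). The lower count was 1 without control replicate 2 or IGF2BP3 KD replicate 1 or 2, and the higher count was 1 without control replicate 1 or IGF2BP3 KD replicate 1.

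The closest neighbours did not pass the test. SATB1, which overlaps TBC1D5, was at 2.29 CPM in control and 3.57 in IGF2BP3 KD cells, with all 3 IGF2BP3 KD values above the control values (0.64, adjusted p = 0.0527 in edgeR). HS2ST1 starts 211 bases from SELENOF and was at 110 and 121 CPM (0.13), and its 3′ UTR holds GATTACT, as do those of SH3GLB1, YWHAB and FGFR1 among the neighbours. TTPAL lies 1618 bases from SERINC3 (0.10) and CCN1 2398 bases from DDAH1 (0.09). Of 5 tested coding genes between DDAH1 and SELENOF, 1 fell (SH3GLB1) and 0 rose in edgeR, with 1 lower and 0 higher at an unadjusted p of 0.05. The shares over all genes were 10.6% lower and 9.87% higher at the adjusted threshold.

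**Figure D5:**
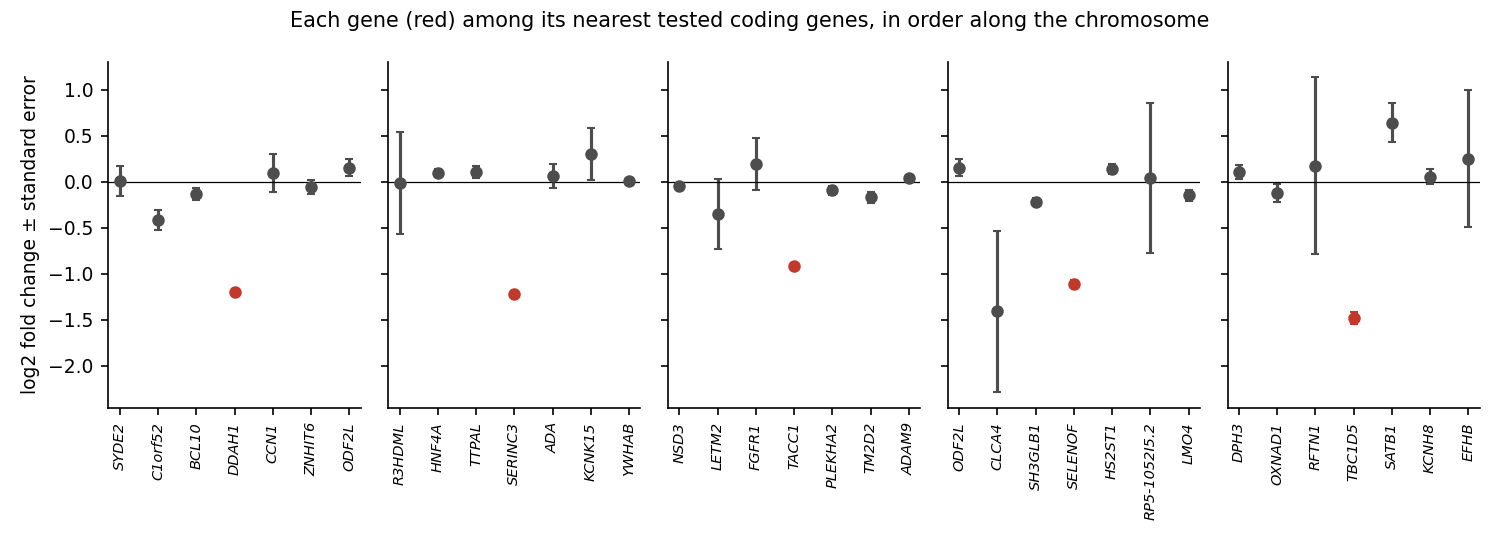
Log2 fold change ± standard error (y axis) of each of the 5 genes (red) and of the 3 nearest tested coding genes on each side (grey), in chromosomal order (x axis). The red points, from −0.92 to −1.48, lie below all their neighbours except CLCA4 beside SELENOF, which was at 0.337 and 0.127 CPM (−1.41) and did not pass, and the other neighbours run from −0.42 (C1orf52) to 0.64 (SATB1).

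Overlap with the exons of other genes was small. The exons of SERINC3, TACC1 and SELENOF overlap no other annotated exons. Those of DDAH1 share 383 bases (8.35%) with a long noncoding RNA on the same strand, ENSG00000282057, that had too few reads to be tested, and those of TBC1D5 share 211 bases (1.87%) with SATB1.

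The 5 genes whose profile over the 6 libraries was most like the average of these 5 were STK39, DBI, ACTN1, RHOA and CHAC1, among 9499 coding genes with at least 10 CPM. Likeness was the root mean square distance of log2(CPM + 0.5) from the control mean, over 6 libraries, and ran from 0.0558 for STK39 to 0.0804 for CHAC1. DBI, an acyl-CoA binding protein, went from 34.2 to 14.9 CPM (−1.20). The word is in STK39, DBI and RHOA, and not in ACTN1 or CHAC1, a glutathione-degrading enzyme, beside 9.20% of the 13795 tested coding genes with a 3′ UTR. Likeness picks genes with a fall like that of the 5, on the comparison that gave the word. Nothing is therefore read from its presence here. Of the 5 themselves, DDAH1 (0.0265) and SERINC3 (0.0293) lay closest to their average, SELENOF (0.0610) came next, and TACC1 (0.187) and TBC1D5 (0.209) lay farthest, one above and one below it.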

How the data were processed

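PolyA RNA from OE-19 cells was sequenced in 3 control and 3 IGF2BP3 KD libraries with a directional kit as paired reads of 150 bases. Per the labels and the study's methods, the authors used fastp, HISAT2 (hg38) and featureCounts and deposited raw counts per gene. Tool versions, strand setting and annotation release are not given in the sources used here. Of 60612 entries, 132 repeats of 44 identifiers were left out. No row of totals was present.

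Genes were kept by filterByExpr (minimum count 10, minimum total 15), scaled by TMM and fitted with the quasi-likelihood test of edgeR 4.0.16 in R 4.3.3, with Benjamini-Hochberg adjustment over 19778 genes and a threshold of 0.05. The common biological coefficient of variation was 0.148. The SE is the log2 fold change divided by the square root of F. The fit moderates each gene's dispersion with that of other genes, so the SE is not the gene's own spread alone. The fit was tested on simulated data with known fold changes. The smallest p that an exact permutation of 3 against 3 libraries allows is 0.1, so single values were given no such test.

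3′ UTRs and positions came from GENCODE release 44 on hg38, miRNAs from RefSeq. The genes named are the 5, ERBB3 and RHOA, IGF2BP3, genes called in 6 hand-written lists, the 3 nearest tested coding neighbours on each side, exon overlaps and the 5 most alike profiles. Some others were named after their values were seen. The 5 genes, the words and the lists were chosen with earlier results of these data known. Alternatives were RLE scaling, no filter, at least 10 counts in every library, DESeq2 1.42.0, a replicate block, a threshold of 0.01, a pseudocount of 2 for likeness, and each library left out.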

Additional observations from a re-analysis of the deposited data

How the results depend on the processing

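No direction reversed under any alternative run, and the log2 fold changes of the 5 genes stayed within −1.23 to −1.18 (DDAH1), −1.25 to −1.20 (SERINC3), −0.93 to −0.92 (TACC1), −1.14 to −1.07 (SELENOF) and −1.53 to −1.42 (TBC1D5) when each library was left out. The 5 were chosen for large and tight falls in these same libraries, so their steadiness is not read as a result. Over all genes, leaving out 1 library gave 1674 to 2006 lower and 1463 to 1780 higher genes. At an adjusted p of 0.01 there were 1314 lower and 1098 higher genes, with 2 higher arginine genes, 0 lower and 1 higher SERINC list genes, 1 lower selenoprotein list gene, 4 higher TBC genes, 1 higher retromer gene and 1 lower neighbour. Without a filter on low counts there were 2 higher arginine genes, 1 higher SERINC list gene and 1 higher retromer gene. With at least 10 counts in every library there were 1 lower retromer gene and 1 higher neighbour, and DESeq2 gave 1 lower and 4 higher retromer genes and 2 higher neighbours. The numbers shared by the groups did not pair the libraries: the correlations of same-numbered deviations were −0.0171, −0.0512 and −0.0415. With the replicate block there were 2026 lower and 1875 higher genes, 1 higher SERINC list gene and 1 higher neighbour, and the other list counts stayed within 1.5 times. Leaving out 1 library gave 2 to 3 higher arginine genes, 0 to 3 lower and 1 to 3 higher SERINC list genes, 1 to 2 lower selenoprotein list genes, 6 to 7 lower and 5 to 8 higher TBC genes, 0 to 2 lower and 1 to 3 higher retromer genes, and 1 to 2 lower and 0 to 1 higher neighbours. Of 44 genes called in the lists and among neighbours, 17 were lost at an adjusted p of 0.01. The 5 genes most like the average were the same 5 with a pseudocount of 2. The cause of these changes was not tested beyond fewer libraries or a stricter threshold. Depth limits the genes under a few CPM, such as CLCA4, and not the 5.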
